A study of Mus musculus with 4 samples.

Results

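The mouse linker histone genes were examined for peaks of their own protein family. They were 10 genes (H1f0, H1f1, H1f2, H1f3, H1f4, H1f5, H1f7, H1f8, H1f10 and Hils1), chosen by name with earlier results of these data known. The 10 are among 21776 protein-coding genes of RefSeq on the assembled chromosomes of GRCm38.p6, whose coordinates are those of mm10. For each gene, the peaks that overlapped its RefSeq span extended by 25 kb on either side were taken. H1f1, H1f2, H1f3, H1f4 and H1f5 lie in the histone gene cluster of chromosome 13, and the other 5 are solitary. The data came from chromatin immunoprecipitation sequencing (ChIP-seq) of mouse embryonic stem cells (strain 129S4/SvJae) in which H1foo, the protein of H1f8, was overexpressed as a fusion with GFP. All 4 libraries were from such cells, with no treatment. The 2 H1foo libraries used a rabbit polyclonal antibody prepared in-house, and the 2 AE4 libraries used the mouse monoclonal AE4, an antibody for somatic H1. The sources used here do not give the promoter of the transgene, the number of clones, or whether AE4 also binds H1foo.

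Linker histone H1 sits on the nucleosome where the DNA enters and leaves it, and favours compact chromatin. H1f1 to H1f5 encode the replication-dependent somatic variants, which are made in S phase from genes that stand among core histone genes. H1f0 and H1f10 encode replacement variants made outside S phase, H1f0 mostly in cells that stop dividing. H1f8 encodes the linker histone of the oocyte and early embryo, and H1f7 and Hils1 encode linker histones of spermatids.

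Each antibody had 1 deposited peak list, with 97825 peaks for H1foo and 47493 for AE4. Neither list separates its libraries, so no value below has a replicate error and no test was made. The read depth is unknown, and the H1foo list is the longer. A count at a gene is therefore set beside the same count over all protein-coding genes in the same list. This background was not matched for gene length. The windows include the gene span, so longer genes have wider windows than the linker histone genes, which are 725 to 5312 bp long. The effect of this on the window counts and shares below was not tested. Each peak carries the authors' score, used here only to rank peaks within a list; its median was 73.2 for H1foo and 63.8 for AE4. A gene without a peak may still carry the protein.

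The stretches shown are the RefSeq sequences just before the start sites (GRCm38.p6, each written along its own gene's strand). They do not show the contrast in peak numbers within 25 kb, since H1f0, H1f8 and H1f10 also had no peak over the start site. For H1f7 and Hils1, the only linker histone genes with a peak over the start site, the last 200 bases before it are shown, with the bases inside the H1foo peak in capitals. These were 84 of the 200 bases at H1f7 (chr15:98257308-98257507, minus strand) and 167 of 200 at Hils1 (chr11:94967393-94967592, plus strand).
H1f7: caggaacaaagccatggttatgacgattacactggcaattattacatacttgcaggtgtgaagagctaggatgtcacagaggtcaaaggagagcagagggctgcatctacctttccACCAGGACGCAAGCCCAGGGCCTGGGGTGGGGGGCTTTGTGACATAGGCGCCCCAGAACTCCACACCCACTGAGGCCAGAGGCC
Hils1: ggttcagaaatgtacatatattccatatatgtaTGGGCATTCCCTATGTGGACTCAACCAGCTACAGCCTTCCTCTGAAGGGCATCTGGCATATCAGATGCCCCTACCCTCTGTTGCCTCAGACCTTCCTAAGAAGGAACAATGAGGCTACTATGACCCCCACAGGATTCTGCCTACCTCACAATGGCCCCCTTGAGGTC

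For the chromosome 13 genes, the last 130 bases before the start site are shown because they share promoter elements and hold no peak of either antibody. Capitals mark AAACACA (the H1 box, an element of H1 promoters), CCAAT and TATAAA, searched on both strands. The stretches are chr13:23763538-23763667, chr13:23738677-23738806 and chr13:23554902-23555031 on the plus strand for H1f1, H1f2 and H1f3, and chr13:23622559-23622688 and chr13:21780626-21780755 on the minus strand for H1f4 and H1f5.
H1f1: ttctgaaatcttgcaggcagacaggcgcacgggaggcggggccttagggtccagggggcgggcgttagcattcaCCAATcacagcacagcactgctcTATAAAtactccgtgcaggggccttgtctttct
H1f2: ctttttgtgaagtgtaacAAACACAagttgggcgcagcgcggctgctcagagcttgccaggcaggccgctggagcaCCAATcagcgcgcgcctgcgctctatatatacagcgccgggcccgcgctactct
H1f3: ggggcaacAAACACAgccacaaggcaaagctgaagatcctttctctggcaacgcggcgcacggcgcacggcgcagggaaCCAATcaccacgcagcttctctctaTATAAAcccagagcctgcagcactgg
H1f4: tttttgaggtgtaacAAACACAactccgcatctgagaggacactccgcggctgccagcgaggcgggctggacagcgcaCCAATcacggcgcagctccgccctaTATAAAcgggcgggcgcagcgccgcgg
H1f5: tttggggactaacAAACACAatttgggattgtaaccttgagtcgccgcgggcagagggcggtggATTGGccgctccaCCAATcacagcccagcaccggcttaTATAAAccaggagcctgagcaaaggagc

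The H1 box letters were found in the 250 bases before the start site of 4 of 5 cluster genes, all but H1f1, and of 0 of 5 solitary genes. They were present in 6.25% of 32851 RefSeq promoters of that length. CCAAT was found at 5 of 5 cluster genes and at 2 of 5 solitary genes, against 33.8% of all promoters, and TATAAA at 4 of 5 and 0 of 5, against 12.4%. H1f2 was the cluster gene without TATAAA. All 3 motifs stood together at H1f3, H1f4 and H1f5, a combination held by 0.390% of all promoters. The H1 box began between 122 and 112 bases before the start site in the 4 genes that have it. The CCAAT nearest the start began between 56 and 51 bases before it in all 5. Since the H1 box is an element known from H1 promoters, its presence here is a description and not a new result.

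The first question was whether the linker histone genes lie near peaks of H1foo or AE4. An H1foo peak lay within 25 kb of 6 of the 10 genes, against 71.9% of all protein-coding genes. An AE4 peak lay within 25 kb of 5 of the 10, against 66.1%. Both antibodies had a peak at 4 of the 10 (H1f0, H1f7, H1f8 and Hils1), against 61.1% of all genes, and neither had one at 3 (H1f1, H1f2 and H1f3), against 23.1%. Over all 10 genes, these shares of genes with a peak were near or below the background and are not a result about the family. The genes differed strongly among themselves: all cluster genes had few peaks, while the solitary genes ranged from few to many. The cluster genes are also the replication-dependent ones, so location and gene class cannot be told apart here.

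Of the 5 replication-dependent genes of chromosome 13, 1 had an H1foo peak within 25 kb and 1, a different gene, had an AE4 peak. Of the 5 solitary genes, all 5 had an H1foo peak and 4 had an AE4 peak. The median number of H1foo peaks per gene was 0 in the cluster (0 to 1) and 12 among the solitary genes (1 to 24), against 4 over all protein-coding genes. For AE4 the medians were 0 (0 to 1) and 3 (0 to 14), against 2. The classes met at the low end, since H1f7 and H1f10 had as few H1foo peaks as H1f5. The solitary H1foo median moved with the window and the members: within 10 kb it was 1, below the 2 over all genes, and within 25 kb it was 6.5 without H1f0 or without Hils1. With peaks at or above the median score it was 3, against 1 over all genes.

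**Figure D1:**
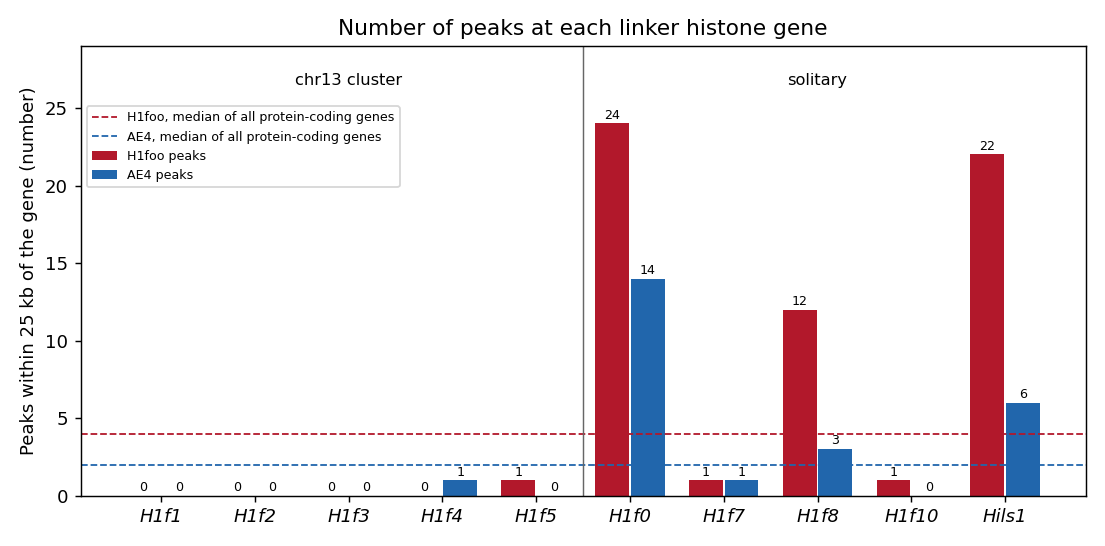
Number of H1foo (red) and AE4 (blue) peaks within 25 kb of each linker histone gene, with dashed lines at the median of all protein-coding genes (4 and 2). The 5 genes of the chromosome 13 cluster have 0 or 1 peak of each antibody, while H1f0, H1f8 and Hils1 have 24, 12 and 22 H1foo peaks.

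The cluster genes share a locus and are not independent. The windows of H1f1 and H1f2 overlap, so the 5 genes make 4 separate stretches, of 228 kb together. These stretches held 1 H1foo peak and 1 AE4 peak, or 0.439 per 100 kb for each antibody. Along chromosome 13 up to its last gene or peak, the densities were 1.795 H1foo and 0.943 AE4 peaks per 100 kb. The 5 solitary stretches, of 261 kb together, held 60 H1foo and 24 AE4 peaks, or 23.0 and 9.20 per 100 kb. H1f0, Hils1 and H1f8 held all but 2 of these H1foo peaks, at 45.9, 43.3 and 21.7 per 100 kb, while H1f7 and H1f10 had 1.95 and 1.96, as low as H1f5 at 1.97. The averages over chromosomes 6 (H1f8 and H1f10), 11 (Hils1) and 15 (H1f0 and H1f7) were 2.06, 7.89 and 4.16. Each of the 5 cluster genes is in the top decile of gene density, with 43 to 51 genes centred within 500 kb, itself included. In that decile, 74.3% of genes had an H1foo peak within 25 kb and 71.5% an AE4 peak. On chromosome 13 as a whole the shares were 67.1% and 52.7%. The shares of the decile and of the chromosome were not matched for gene length either.

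**Figure D2:**
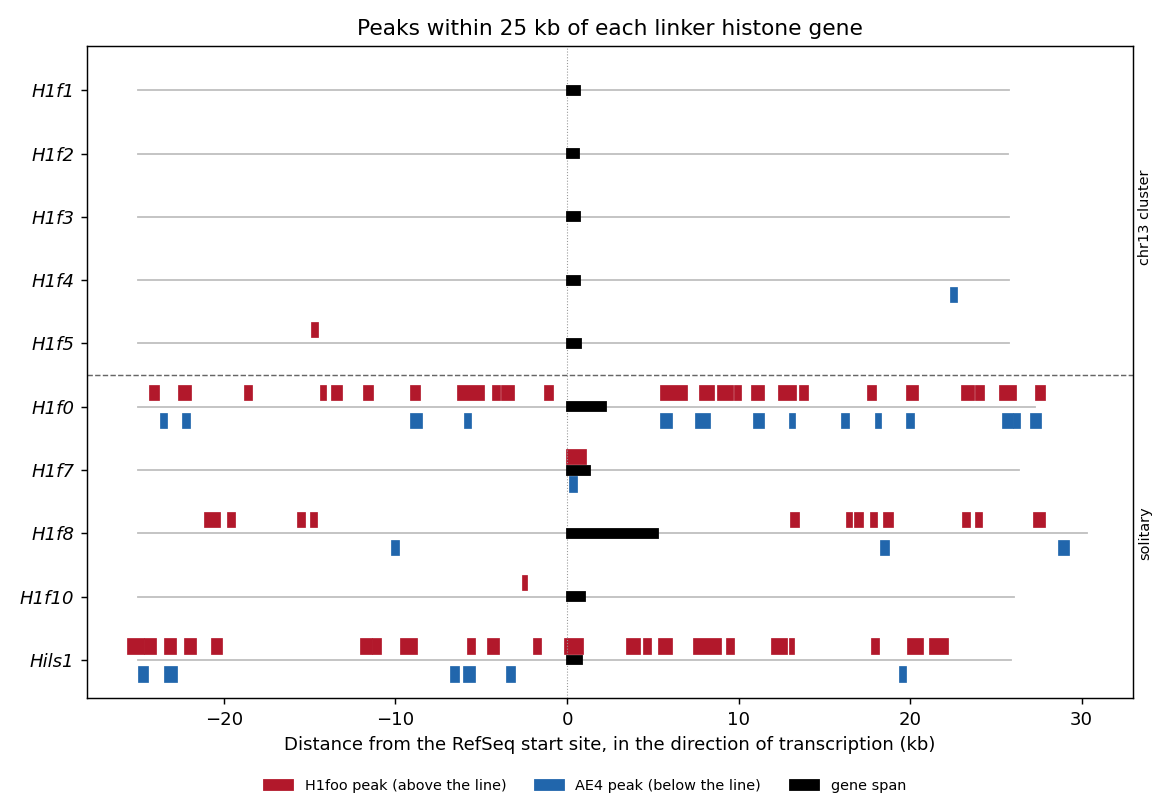
Position of every peak within 25 kb of each linker histone gene, in kb from the RefSeq start site along the direction of transcription. H1foo peaks are drawn above each line and AE4 peaks below it, and black bars are the gene spans. The upper 5 lines, those of chromosome 13, carry 1 H1foo peak and 1 AE4 peak in all, and only H1f7 and Hils1 have a peak over the gene.

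Among the replication-dependent genes, H1f1 (chr13:23763668-23764412) encodes H1.1 and had 0 peaks of either antibody in its window. Its nearest H1foo peak lay 57495 bp upstream, inside Hfe, an iron metabolism gene, and its nearest AE4 peak 64517 bp downstream. H1f2 (chr13:23738807-23739531), which encodes H1.2, also had 0 and 0. The same Hfe peak (chr13:23705709-23706173, score 57.3) was its nearest, 32634 bp upstream, and AE4 was 89398 bp away. Both genes lay in a stretch of 407 kb without an H1foo peak.

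H1f3 (chr13:23555032-23555807), the gene of H1.3, had 0 peaks of either antibody. Its nearest H1foo peak was 75938 bp upstream in Btn2a2, a butyrophilin gene, and its nearest AE4 peak was 43989 bp downstream. H1f4 (chr13:23621777-23622558), the gene of H1.4, had 0 H1foo peaks and 1 AE4 peak, at chr13:23599796-23600221, 21556 bp downstream and within the RefSeq span of the core histone gene H2bc6. That AE4 peak was also the nearest to H1f3, and its score of 56.2 exceeded that of 27.99% of AE4 peaks. H1f3 and H1f4 shared a stretch of 211 kb without an H1foo peak.

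H1f5 (chr13:21779832-21780625), the gene of H1.5, stands apart from the others by more than a megabase. It had 1 H1foo peak, at chr13:21795159-21795523, 14534 bp upstream within the span of H2bc22, with a score of 72.1, and 0 AE4 peaks. The nearest AE4 peak was 278598 bp away, and 91.3% of protein-coding genes had one nearer. For H1foo, the share of all genes with a nearer peak ran from 68.5% for H1f5 to 79.9% for H1f3. None of the 5 had a peak of either antibody over the gene itself. Among all genes of 725 to 5312 bp, the range of lengths of the 10 linker histone genes, 30.2% had an H1foo peak over some part of the gene and 13.9% an AE4 peak.

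**Figure D3:**
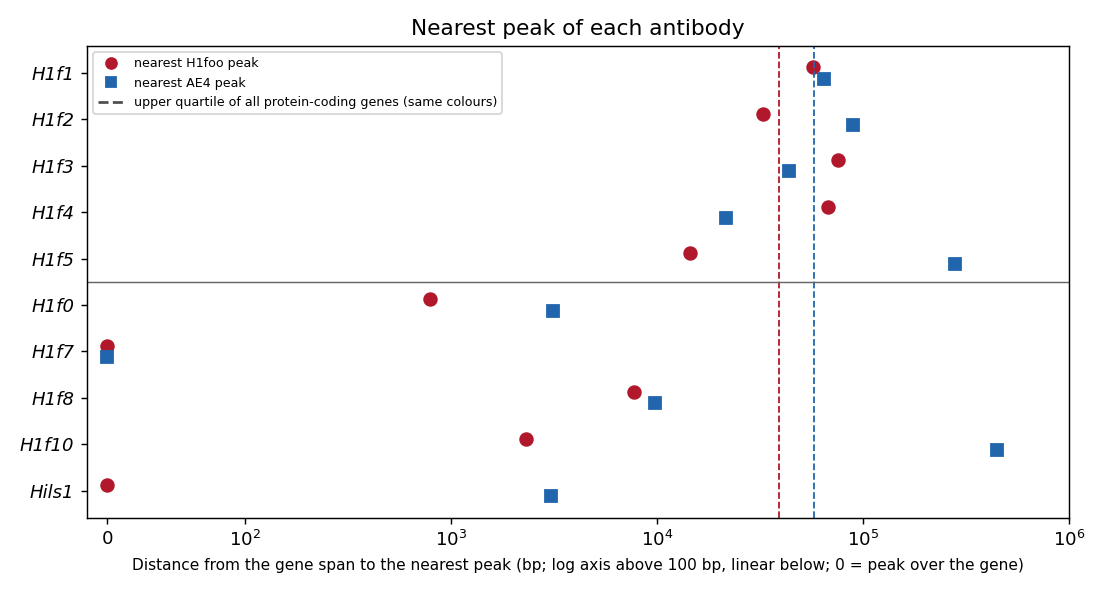
Distance from each gene to the nearest H1foo peak (red circles) and AE4 peak (blue squares), in bp on an axis that is logarithmic above 100 bp and linear below, where 0 is a peak over the gene. Dashed lines are the upper quartiles of all protein-coding genes. The cluster genes lie between 14534 and 75938 bp from an H1foo peak, and the solitary genes between 0 and 7715 bp.

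In the full lists, nearest distances separated the classes of the 10 genes for H1foo but not for AE4. H1f6, a linker histone gene of the same cluster that is not among the 10, did not keep to this separation. Its nearest H1foo peak was 4832 bp away, inside the range of the solitary genes. With H1foo peaks at or above the median score alone, H1f10 was 522310 bp from the nearest one, farther than each cluster gene (89593 to 298229 bp), and the H1foo separation was lost. The H1foo distance was 14534 to 75938 bp in the cluster, with a median of 57495 bp, and 0 to 7715 bp at the solitary genes, with a median of 793 bp. The AE4 distance was 21556 to 278598 bp in the cluster and 0 to 449248 bp at the solitary genes, with medians of 64517 and 3130 bp. H1f10, a solitary gene, had the largest AE4 distance of all 10. Over all protein-coding genes the median distance was 0 bp for H1foo and 4274 bp for AE4, which includes long genes that contain peaks.

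H1f0 (chr15:79028212-79030504), the gene of the replacement variant H1.0, had the most peaks, 24 of H1foo and 14 of AE4. Fewer H1foo peaks were found at 90.6% of protein-coding genes, and fewer AE4 peaks at 94.4%. H1foo peaks covered 32.8% of its window and AE4 peaks 13.4%. The highest H1foo scores were 441.1, at chr15:79021793-79023393 in the sequence upstream of the gene, and 383.8, at chr15:79033636-79035220 in Gcat, an enzyme of threonine breakdown and the next gene downstream. Of the 24 H1foo peaks, 17 had at least the median score of the list, 4 were 1 kb wide or more, and 7 lay in Gcat.

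The span of H1f0 itself held 0 peaks of either antibody. It stood in a gap of 6.22 kb between H1foo peaks, whose upstream edge was 793 bp before the start site, and in a gap of 11.04 kb between AE4 peaks. H1f0 thus had the most H1foo peaks of the 10 genes within 25 kb and none on the gene or its start site. By the numbers of both antibodies' peaks within 5, 10, 25 and 100 kb, the most similar genes on other chromosomes were Oxld1, Ccdc137 and Tssk6, at distances of 0.34, 0.50 and 0.60 on the log2(1 + number) scale. Oxld1 on chromosome 11, for example, had 19 H1foo and 13 AE4 peaks within 25 kb.

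H1f10 (chr6:87980421-87981482), the gene of the other replacement variant, H1X, had few peaks although it is solitary. There was 1 H1foo peak, at chr6:87983798-87984133, 2316 bp upstream with a score of 57.5, and there were 0 AE4 peaks. Its nearest AE4 peak lay 449248 bp away in Eefsec, within a stretch of 973 kb without an AE4 peak. Within 500 kb it had 5 H1foo peaks and 1 AE4 peak, fewer of each than any of the 5 cluster genes, where the numbers were 11 to 12 and 2 to 7. The promoters of H1f0 and H1f10 were the richest in G and C of the 10, at 74.4% and 75.2% of the 250 bases before the start site, against a median of 52.4% over all promoters. Neither had a peak over the start site.

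H1f8 (chr6:115944931-115950242), the oocyte gene whose product the cells overexpress as a GFP fusion, had 12 H1foo and 3 AE4 peaks within 25 kb, and 0 over the gene. Its nearest H1foo peak was 7715 bp downstream in Plxnd1, a semaphorin receptor gene, and its nearest AE4 peak was 9818 bp upstream. Of the 12 H1foo peaks, 8 lay in Plxnd1. The 12 peaks were low in score, with a median of 55.9 and 3 of 12 at or above the median of the list. H1f8 stood in a gap of 27.6 kb between H1foo peaks and of 28.1 kb between AE4 peaks. Of all protein-coding genes, 71.3% had fewer H1foo peaks within 25 kb and 57.3% fewer AE4 peaks. The most similar genes on other chromosomes were 1110004F10Rik, Caml and Ilf2, at distances of 0.53, 0.67 and 0.73 on the same scale.

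The spermatid genes H1f7 and Hils1 were the only members with a peak over the gene, and in both an H1foo peak covered most of it. At H1f7 (chr15:98255982-98257307) the H1foo peak chr15:98256184-98257391 covered 84.8% of the gene and the start site, and its score of 257.3 exceeded that of 97.3% of H1foo peaks. The AE4 peak chr15:98256742-98257179, with a score of 66.6, lay inside it, covered 33.03% of the gene and stopped 128 bp short of the start site. These were the only peaks within 25 kb. The window held 1 other protein-coding gene, the olfactory receptor Olfr286. Within 500 kb, H1f7 had 176 H1foo and 52 AE4 peaks, so its immediate surroundings were sparse and its wider region was not.

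At Hils1 (chr11:94967593-94968456) the H1foo peak chr11:94967426-94968523 covered 100% of the gene, with a score of 195.4 that exceeded 94.6% of the list. AE4 had no peak over Hils1, and its nearest was 3053 bp upstream in Sgca. The peak over Hils1 also lies within the span of Sgca, which encodes a sarcoglycan of muscle, so it is not a peak of Hils1 alone. The window held 22 H1foo and 6 AE4 peaks, of which 7 and 1 touched Sgca and 5 and 2 touched Col1a1, a collagen gene. The highest H1foo score of the window was 222.4, at chr11:94974939-94976584 in Sgca.

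Peaks over a start site or over most of a gene were uncommon in the genome. An H1foo peak lay over a RefSeq start site at 10.1% of 17492 genes, and an AE4 peak at 1.98%. A single H1foo peak covered at least 80% of the gene at 75 of 21776 protein-coding genes, or 0.344%, and at 1.30% of those of 725 to 5312 bp. H1f7 and Hils1 are 2 of these 75. The limit of 80% was chosen after the values were seen. The promoters of H1f7 and Hils1 were not rich in CG dinucleotides, with 3 and 0 in 250 bases, against 10 to 19 at the cluster genes. The median over all promoters was 6. H1f8, which had no peak over the gene, had 4, so a low number is not particular to the genes with such a peak.

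The order of the members by H1foo peaks within 25 kb was H1f0, Hils1 and H1f8, then H1f5, H1f7 and H1f10 with 1 each, then H1f1, H1f2, H1f3 and H1f4 with 0. For AE4 it was H1f0, Hils1 and H1f8, then H1f4 and H1f7 with 1 each and the other 5 with 0. Without replicates, neighbouring ranks cannot be told apart beyond these counts.

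The low counts of the cluster genes extended over a wider region. Within 100 kb they had 1 to 2 H1foo and 0 to 2 AE4 peaks, against medians of 11 and 5 over all protein-coding genes. Within 500 kb they had 11 to 12 H1foo and 2 to 7 AE4 peaks, against 49 and 22. H1f0, Hils1 and H1f8 stayed above those medians at both sizes, with 69, 61 and 37 H1foo peaks within 100 kb. The share of genes with any peak depended on the window, since all 10 members had an H1foo peak within 100 kb, against 81.9% of all genes.

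**Figure D4:**
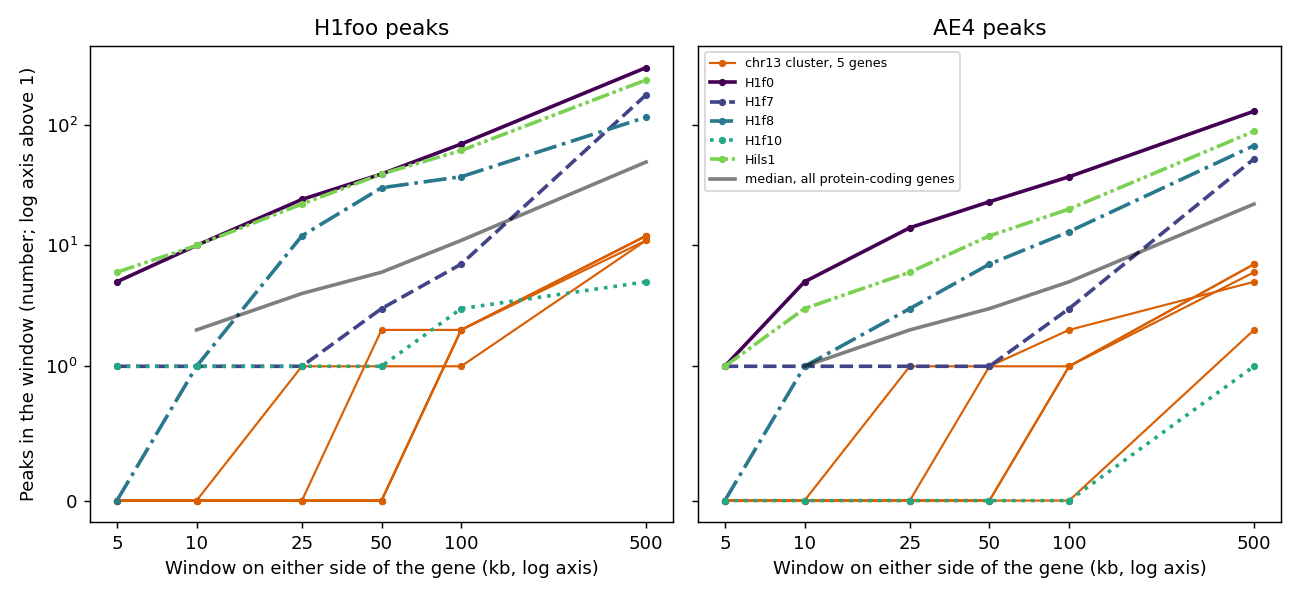
Number of H1foo (left) and AE4 (right) peaks within 5 to 500 kb of each linker histone gene, with both axes logarithmic (the vertical one above 1); the grey line is the median of all protein-coding genes from 10 kb on. The 5 cluster genes (orange) stay below the grey line at each size, as does H1f10, while H1f7 crosses it between 100 and 500 kb.

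The peaks of the antibodies met at the solitary genes. Of the 61 H1foo peaks in the windows, each counted once, 17 overlapped an AE4 peak by at least 1 bp (27.9%, exact 95% binomial interval 17.1 to 40.8%), and of the 25 AE4 peaks 17 overlapped an H1foo peak (68.0%, 46.5 to 85.1%). Over the whole lists the shares were 24.1% and 51.2%, inside both intervals, which cover counting error only. The intervals treat peaks as independent, though many lie side by side in the same window, so they may be too narrow. Of the overlapping H1foo peaks, 11 were at H1f0, 4 at Hils1 and 1 each at H1f7 and H1f8. The single H1foo and AE4 peaks at the cluster genes did not overlap the other list. With 1 peak of each antibody there, overlap cannot be compared between the classes.

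Other histone genes were examined in the same way. Of the 47 core histone genes of chromosome 13, which encode the proteins of the nucleosome core, 9 had an H1foo peak within 25 kb and 4 an AE4 peak, shares of 19.1% and 8.51% beside 1 of 5 and 1 of 5 for the linker genes there. Over all protein-coding genes the shares were 71.9% and 66.1%. Several of the core genes share 1 peak, and the linker genes share peaks with them. The AE4 peak near H1f4 is the only one near each of those 4 core genes. The H1foo peak near H1f5 is also the one near the core genes around it. The core genes are therefore not a second, independent group. The histone genes form a block of 328 kb with 22 histone genes, H1f5 among them, which held 3 H1foo peaks and 0 AE4 peaks, and a block of 404 kb with 31 histone genes, which held 2 of each. H1f6, the spermatocyte linker histone gene in the second block, had 2 H1foo peaks within 25 kb, the nearer 4832 bp upstream in H2bc4, and 0 AE4 peaks. Core histone genes outside chromosome 13 had an H1foo peak at 18 of 19 and an AE4 peak at 16 of 19, against 71.9% and 66.1% of all protein-coding genes. The exception for H1foo was H3c14. A smaller histone cluster on chromosome 3 was singled out after the values were seen, and 9 of its 10 genes had an H1foo peak, with a median of 2 per gene, and 7 an AE4 peak. These 10 genes are among the 19 and share a few peaks, as do H2bu2 and H2aw. The 19 genes are therefore not independent either.

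Genes of proteins that act on histone transcripts or on H1 lay near peaks. Factors of the histone locus body and of histone mRNA processing had an H1foo peak within 25 kb at 10 of 10 matched genes of 11 listed and an AE4 peak at 9 of 10, with Eri1 as the exception. Lsm10, of the U7 particle that processes histone mRNA, had 22 H1foo peaks. The factor with the highest-scoring H1foo peak in its window was Hinfp, a regulator of histone H4 genes (359.8). The window of the core histone gene H2ax, on the same chromosome, had the same highest score, so that peak is not one of Hinfp alone. H1 chaperones and binders had peaks of both antibodies at 7 of 7, with a median of 13 H1foo and 6 AE4 peaks, and the highest H1foo score at Set (416.9). Genes of the HMGN, HMGB and HMGA proteins, which compete with H1 for the nucleosome, had an H1foo peak at 6 of 8 and an AE4 peak at 7 of 8. Hmgn5 had neither, and Hmgn3 had 2 AE4 peaks and 0 H1foo peaks. These lists are short, and beside backgrounds of 71.9% and 66.1% nothing is read as particular to them.

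**Figure D5:**
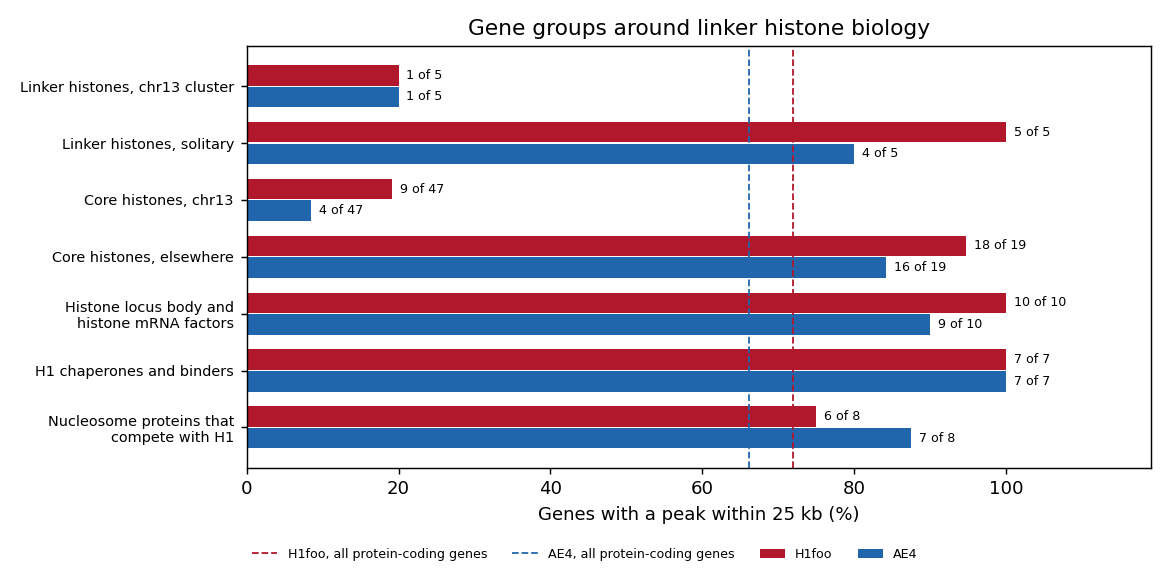
Share of genes with an H1foo (red) or AE4 (blue) peak within 25 kb in each gene group, in percent, with the number of genes at the end of each bar and dashed lines at the share of all protein-coding genes (71.9% and 66.1%). Both histone groups of chromosome 13 lie far below the dashed lines, with 1 of 5 and 1 of 5 linker genes and 9 of 47 and 4 of 47 core genes, and the other groups lie above them. The histone groups of chromosome 13 share peaks and are not independent. The share of all protein-coding genes was not matched for gene length.

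Core histone genes, and to a lesser degree the replication-dependent H1 genes, have near-identical copies within the cluster, where the placement of reads is uncertain, and the sources used here do not say how reads with several placements were treated. Its part in the low counts was not tested.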

How the data were processed

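ChIP-seq libraries of H1foo-GFP overexpressing mouse embryonic stem cells (2 with the H1foo antibody, 2 with AE4) had been aligned with Bowtie 1.1.2 to mm10, per the submitters' processing notes, and peaks called with MACS, per the file headers. The authors deposited 1 peak list per antibody with a score per peak, whose lowest value was 50 and whose scale is not named. The sources used here do not say whether libraries were pooled or an input was used. Depth is unknown.

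Starts were converted to positions counted from 1. Genes were the RefSeq spans of GRCm38.p6; 111 protein-coding genes with scaffold positions were left out. All 10 members matched by symbol, also in the RefSeq promoter table, which gave strand and start site. Of the further gene lists, 1 entry of 11 among the histone locus body and mRNA factors, Symplk, had no match; it is a misspelling of Sympk, which was not analysed here. Exons were not used here, and 1 neighbouring gene is not reported here. Overlap meant at least 1 bp. Counting functions were tested on simulated intervals. Python 3.11.15, pandas 2.3.3 and scipy 1.17.1 were used. No test was made, since the lists hold no value per library and genes are not replicates.

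The members and lists were chosen with earlier results of these data known. All members were named, with the genes around their peaks, the 3 genes of most similar peak counts for H1f8 and for the solitary gene with most H1foo peaks, and list genes with the highest score or as the exception. Alternatives were the window, the score threshold, the peak centre, an H1foo list of equal length, the overlap rule, leaving out each gene, and, added after the data were seen, windows around start sites.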

Additional observations from a re-analysis of the deposited data

How the results depend on the processing

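The median number of H1foo peaks was 12 higher at the solitary than at the cluster genes, and that of AE4 peaks 3 higher. The solitary median stayed higher in all alternatives run, but the ranges of the classes overlapped in several of them. With a window of 50 kb, for example, the highest H1foo count in the cluster was 2 and the lowest solitary count was 1. The H1foo difference was 1, 30 and 35 with windows of 10, 50 and 100 kb, and 3 with peaks of at least the median score or with the H1foo list cut to the length of the AE4 list. The AE4 difference was 1, 7 and 12 with those windows. Leaving out each gene in turn gave 6.5 to 17 for H1foo and 2 to 4.5 for AE4. An H1foo peak lay near 10 members and an AE4 peak near 8 with a window of 100 kb. With peaks of at least the median score, 4 members kept an H1foo peak within 25 kb and 4 an AE4 peak, none of them in the cluster, and the median distance over the 10 genes rose from 11124.5 to 108330 bp for H1foo and from 32772.5 to 207470 bp for AE4. Counting peak centres or windows around start sites, and the stricter overlap rule, moved no value beyond 1.5 times. No paired analysis was possible because the lists hold no value per library. The unknown depth limits every statement about a gene without a peak.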
